A study of Salix linearistipularis with 24 samples.

Results

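Male roots of the dioecious willow *S. linearistipularis* after 6 h in 100 mM NaCl were compared with male control roots. The comparison used 6 of the 24 RNA-seq libraries, 3 of male roots at 6 h and 3 of male control roots, chosen by sex, treatment, and time in their labels. The other 18 libraries were of male roots at 12 and 24 h and of female roots in the same 4 conditions. All cuttings were grown in hydroponics, and the control cuttings stood in water without added NaCl. By the sample labels, every male cutting came from 1 individual and every female cutting from another, whereas the paper describes cuttings from trees of several populations and 3 independent experiments. If the labels hold, the 3 libraries of a group come from 1 genotype, and p-values measure only the spread between libraries, which may be technical. No source used here gives the hour of sampling for the controls, so time of day and NaCl cannot be told apart. In whole roots, fewer cells of a type and less RNA per cell cannot be told apart either.

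Salt lowers the water potential of the medium, and Na+ that enters root cells is toxic in the cytosol. Plants answer salt with ion transporters, among them sodium/hydrogen exchangers (*NHX*), which move Na+ out of the cell or into the vacuole in exchange for protons. Transcription factors of the WRKY and MYB families, chaperones, and enzymes that remove hydrogen peroxide are other known parts of the answer to salt and osmotic stress. In *Arabidopsis*, NHX7 is the plasma membrane exchanger SOS1, and WRKY33 acts in defence and stress signalling.

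Values were FPKM (fragments per kilobase of transcript, scaled to the mapped fragments of a library), from reads assembled without a genome. The contigs of a cluster (CL numbers) were summed to 1 gene, and other genes were single unigenes. Of 139844 genes, 41837 had at least 1 FPKM in at least 3 of the 6 libraries and were tested. A gene was called higher or lower where limma on log2(FPKM + 0.5) gave an adjusted p not above 0.05 and a log2 ratio of 1 or more in size. A change was called shared where each male 6 h library lay at least 1 on the log2 scale beyond all 3 male control libraries, on the same side. No test goes with the second rule. All log2 ratios are male 6 h minus male control, and for genes with low FPKM the pseudocount makes them smaller than the change itself. Of the tested genes, limma called 4652 higher (11.1%) and 9950 lower (23.8%), 34.9% in either direction. These counts depended on the even control libraries, whose small spread limma pools with the wide spread of male 6 h. Without any 1 of male control replicates 1, 2, and 3, limma called 2532 to 2614 genes higher and 3195 to 3287 lower.

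The 3 male 6 h libraries stood apart from each other, which bears on every result below. Across genes, the male 6 h libraries had r from 0.739 to 0.787 with each other, against 0.966 to 0.977 within the other groups. Genes are not independent replicates, so these r are descriptions. For clusters, the median SD over the 3 libraries was 0.629 at male 6 h and 0.0616 in male control roots on the log2 scale. For single contigs, it was 1.07 at male 6 h and 0.102 in male control roots. The library most like male 6 h replicate 1 was male 24 h replicate 3 (r = 0.791), and the one most like male 6 h replicate 2 was male 24 h replicate 1 (r = 0.814). Male 6 h replicate 3 was most like male 6 h replicate 1 (r = 0.762). Replicate 1 was nearly as like the male controls (mean r = 0.789) as the male 24 h libraries (mean r = 0.790). For replicates 2 and 3, the mean r was 0.744 and 0.686 with the male controls, and 0.813 and 0.748 with male 24 h. The sum of FPKM ranged from 663314 to 743637 at male 6 h and from 715822 to 724512 in male control roots, and read numbers per library are unknown. The plot of spread by group shows how far male 6 h lay from the other 7 groups.

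**Figure D1:**
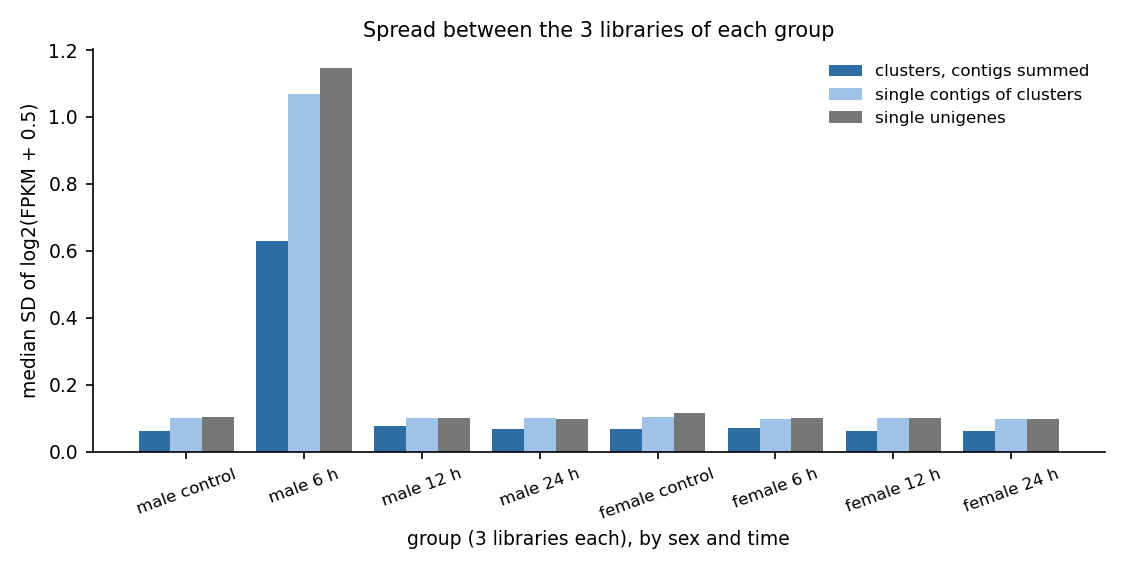
Median SD of log2(FPKM + 0.5) over the 3 libraries of each group, for clusters with contigs summed, for single contigs of clusters, and for single unigenes. The bars of male 6 h reach 0.629, 1.07, and 1.14, while those of male control roots reach 0.0616, 0.102, and 0.103.

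The contig that held most of a cluster's FPKM also changed from library to library. It differed in 52.1% to 55.8% of clusters between 2 male 6 h libraries, against 10.6% to 11.2% between 2 male control libraries. Between male 6 h replicate 1 and a control library, it differed in 27.2% to 27.9% of clusters. For male 6 h replicates 2 and 3, the ranges were 53.0% to 53.4% and 51.0% to 51.8%. Replicate 1 thus shared its leading contigs with the controls more often than the other male 6 h libraries did. Genes seen in a single library were also more frequent at male 6 h. At least 1 FPKM in replicate 1 and 0 in the other 5 libraries was found for 405 genes. The count was 2801 for replicate 2 and 2675 for replicate 3. Of these, 204, 1325, and 966 genes had at least 1 FPKM in some other library of the series. Counted within a group alone, genes with at least 1 FPKM in 1 library and 0 in the other 2 numbered 1692, 4180, and 4092 at male 6 h, against 283, 284, and 801 in male control roots.

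The 3 male 6 h libraries shared part of their changes. A total of 10277 genes lay above all controls in at least 1 male 6 h library, and 3608 of them (35.1%) did so in all 3. These 3608 were 8.62% of the tested genes. A total of 23790 genes lay below all controls in at least 1 library, and 4937 of them (20.8%) did so in all 3, which was 11.8% of the tested genes. Set against a single library, shared genes made up 56.7%, 58.9%, and 50.7% of the genes above the controls in replicates 1 to 3, and 33.7%, 43.2%, and 30.7% of those below them. A single library carried the change for 4567 genes above and 10360 genes below the controls. By library, replicate 2 had the fewest genes below the controls (11420), against 14670 in replicate 1 and 16067 in replicate 3. With 2 male 6 h libraries in place of 3, the shared lower genes numbered 7481 without replicate 1 and 9278 without replicate 2. Opposite directions occurred for 1632 genes (3.90%), which lay above the controls in 1 male 6 h library and below them in another.

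**Figure D2:**
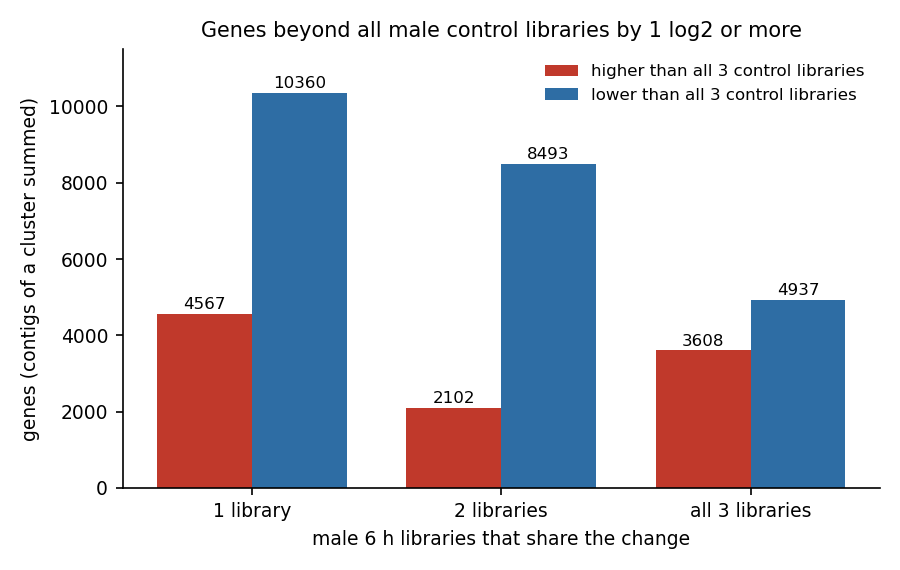
Number of tested genes (y axis) that lay at least 1 on the log2 scale above (red) or below (blue) all 3 male control libraries, by how many male 6 h libraries shared the change (x axis). Genes above the controls in all 3 libraries number 3608, and genes below them in all 3 number 4937.

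Of the shared changes, 3546 higher and 4900 lower genes were also called by limma. Another 1106 genes were called higher and 5050 were called lower without all 3 libraries passing the margin, so 76.2% of the higher and 49.2% of the lower calls were shared. The male 6 h library that moved least had a median log2 ratio of 1.95 among shared higher genes and -1.63 among shared lower ones. It reached 4 or more for 146 higher genes, and -4 or less for 23 lower genes. Among single unigenes, shared lower changes (13.6% of those tested) outnumbered shared higher ones (8.45%), whereas among clusters both were similar (8.44% lower and 8.94% higher). The balance of directions depended on scaling. The median log2 ratio of all tested genes was -0.68, and -0.72, -0.46, and -0.75 for replicates 1 to 3. Scaling by the median of ratios moved it by 0.40 to -0.28 and the share of higher genes among all calls from 31.9% to 54.8%. All 3608 shared higher genes and 2717 of the 4937 shared lower genes were shared under that scaling too. It divided male 6 h replicates 1 to 3 by 0.785, 0.976, and 0.867 and the controls by 1.20, 1.21, and 1.19, which raises the log2 ratios. Shared higher genes could thus hardly drop out, and that all of them stayed is no added support for them. The filter bears on the directions as well. A gene seen in all 3 even controls passes it, while one seen in 1 or 2 of the male 6 h libraries does not. Without scaling, the median log2 ratio was -0.45 with a filter on the mean FPKM and 0.17 with no filter, so its sign depended on the filter.

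Genes listed by the study as salt-responsive in both sexes or as part of reactive oxygen species (ROS) pathways numbered 157, of which 94 passed the filter. Limma called 17 of the 94 higher (18.1%) and 25 lower (26.6%), beside 11.1% and 23.8% of all tested genes. Shared changes numbered 14 higher (14.9%) and 10 lower (10.6%). The median log2 ratio was -0.63 over the 94, and -0.68 over all tested genes. The study chose these lists on these samples, so the counts are not independent evidence of a response. Of the 63 list genes that did not pass the filter, 44 reached 1 FPKM in a male 6 h library and 4 did so in a control library. The filter favours this, since a gene at 1 FPKM in all 3 even controls passes it. Of the 25 lower calls, 11 were of genes in no named family, 6 of peroxisomal ascorbate peroxidases, 4 of annexins, 3 of basic transcription factor 3, and 1 of an *NHX* gene. MYB-type factors gave 6 of the 17 higher calls, small heat shock proteins 3, and *WRKY33* 2.

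*NHX* genes are named here by their Swiss-Prot match, whereas the paper numbers them by their poplar homologs, so the numbers can differ. *NHX7* (CL7345) was the *NHX* gene with a shared change. It stood at 23.1, 9.59, and 11.1 FPKM in male roots at 6 h, against 64.2, 63.3, and 61.7 FPKM in male control roots. All male 6 h libraries were below all controls, with replicate 1 the least lowered. The log2 ratio was -2.18 (SE 0.35, adjusted p = 0.00558 from limma), and -1.73 when libraries were scaled by the median of ratios. It was *NHX1* (CL3276) that lay above all controls in every library, by less than the margin, with 29.3, 29.7, and 32.5 FPKM at 6 h, against 19.95, 20.2, and 21.25 FPKM in control roots. Its log2 ratio of 0.56 (SE 0.21, adjusted p = 0.0779 from limma) did not pass the test, although it was called with scaling (1.01, adjusted p = 0.0126). In that cluster of 13 contigs, contig 2 held 44.0% and 29.8% of the FPKM in male 6 h replicates 1 and 3 and 9.51% in replicate 2, against 40.7% to 44.4% in control roots. The contig that led in replicate 2 was contig 3, with 23.1%. By contrast, contig 2 of the 5 contigs of *NHX7* led in all 6 libraries. These 2 genes are shown by the qPCR primer pairs that the study's supplementary table gives for them, since they identify the transcripts measured and no longer sequence was used here. Each is written 5′ to 3′, with no base marked.
CL7345 forward: atggggagtgcgatagaaaa
CL7345 reverse: caatgccgatgacgagaaga
CL3276 forward: tggtttgaggatggtatcggag
CL3276 reverse: caatggcaagggcagtagtaga

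The other *NHX* genes were not called. CL9910, matched to NHX1 as well, had 25.2, 28.8, and 46.2 FPKM at 6 h, against 32.0, 30.6, and 30.3 FPKM in control roots, and the male 6 h libraries lay on both sides of the controls. *NHX6* (CL2217), an exchanger of the endosomal group in *Arabidopsis*, had 11.8, 22.6, and 18.3 FPKM, against 19.1, 17.4, and 18.0 FPKM. The low-expressed *NHX2* (Unigene43275) had 1.42 and 2.16 FPKM in replicates 1 and 2 and was listed at 0 in replicate 3, against 1.44, 1.5, and 1.35 FPKM in control roots. *SlActin* (CL19537), the reference gene of the study's qPCR, had 14.4, 23.5, and 87.3 FPKM at 6 h, against 40.4, 37.6, and 61.1 FPKM in control roots. Its libraries overlapped, and its log2 ratio was -0.54 (SE 0.64, adjusted p = 0.523 from limma). That makes *SlActin* one of the genes whose male 6 h libraries disagreed in direction.

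The lists hold 2 *WRKY33* genes and 7 MYB-type genes. Of these 9, limma called 8 higher in male roots at 6 h, and 5 were shared by the margin. *WRKY33* (CL3639) stood at 2835, 879, and 989 FPKM in male roots at 6 h, against 30.6, 29.0, and 29.1 FPKM in male control roots. Replicate 1 was the highest, and all 3 lay far above the controls. The log2 ratio was 5.49 (SE 0.46, adjusted p = 0.00183 from limma). The second *WRKY33* unigene (Unigene26361) had 5.34, 18.2, and 6.91 FPKM at 6 h, against 0, 2.45, and 0.400 FPKM in control roots, and was also called higher (log2 ratio 3.08, adjusted p = 0.0219 from limma, but 0.0829 and 0.0856 without male control replicates 1 and 3). Its distance from the highest control was under the margin in replicate 1. Which contigs held the FPKM of CL3639 differed between libraries that all had high sums. Contig 38 led in replicate 1 (27.6%) and in all 3 controls (21.6% to 31.7%), whereas contig 32 led in replicate 2 (32.8%) and replicate 3 (43.8%).

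**Figure D3:**
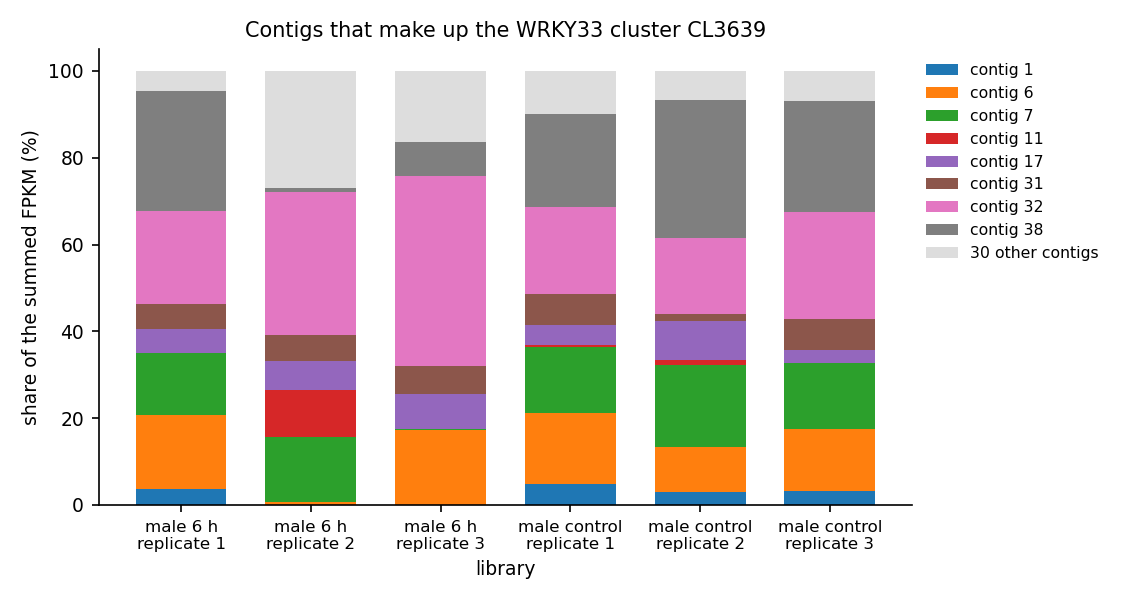
Share of the summed FPKM of *WRKY33* (CL3639) held by its 8 most abundant contigs and by the 30 others (y axis, %), in each male 6 h and male control library (x axis). Contig 38 leads in male 6 h replicate 1 and in the controls, and contig 32 leads in male 6 h replicates 2 and 3.

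Of 7 MYB-type genes, 6 were called higher (11.1% of all tested genes were) and none lower, and 4 were shared higher (8.62% of all tested genes were). The median log2 ratio of the 7 was 3.15. Without male control replicate 1, 2, or 3, limma called 3, 3, and 4 of them. *MYB13* (CL2555) had 608, 257, and 125 FPKM at 6 h, against 12.0, 12.5, and 11.8 FPKM in control roots (log2 ratio 4.42, SE 0.54, adjusted p = 0.00257 from limma). *KUA1* (Unigene43889), a MYB-related repressor that promotes cell expansion in *Arabidopsis* leaves, had 215.7, 75.02, and 82.86 FPKM, against 10.2, 8.80, and 7.82 FPKM (log2 ratio 3.56, adjusted p = 0.00254 from limma). In both, replicate 1 was the highest and all male 6 h libraries were above all controls. Another *KUA1* unigene (Unigene12477) was highest in replicate 3 instead, with 5.74, 2.95, and 22.2 FPKM, and was listed at 0, 0, and 0.1 FPKM in control roots. The remaining *KUA1* unigene (Unigene37971) had 12.8, 10.3, and 9.43 FPKM, against 4.95, 4.35, and 5.31 FPKM. It was called higher but not shared (log2 ratio 1.07, adjusted p = 0.0270 from limma, but 0.114 without male control replicate 1). *MYBS3* (CL5344) had 50.8, 7.66, and 23.7 FPKM, against 1.78, 1.83, and 2.22 FPKM. The gene that was not called, *MYBS1* (Unigene75289), was below all controls in each library, with 0.910, 2.20, and 1.77 FPKM, against 3.18, 3.34, and 3.36 FPKM.

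The plot of shared list genes gives each library of the genes that lay beyond all controls throughout.

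**Figure D4:**
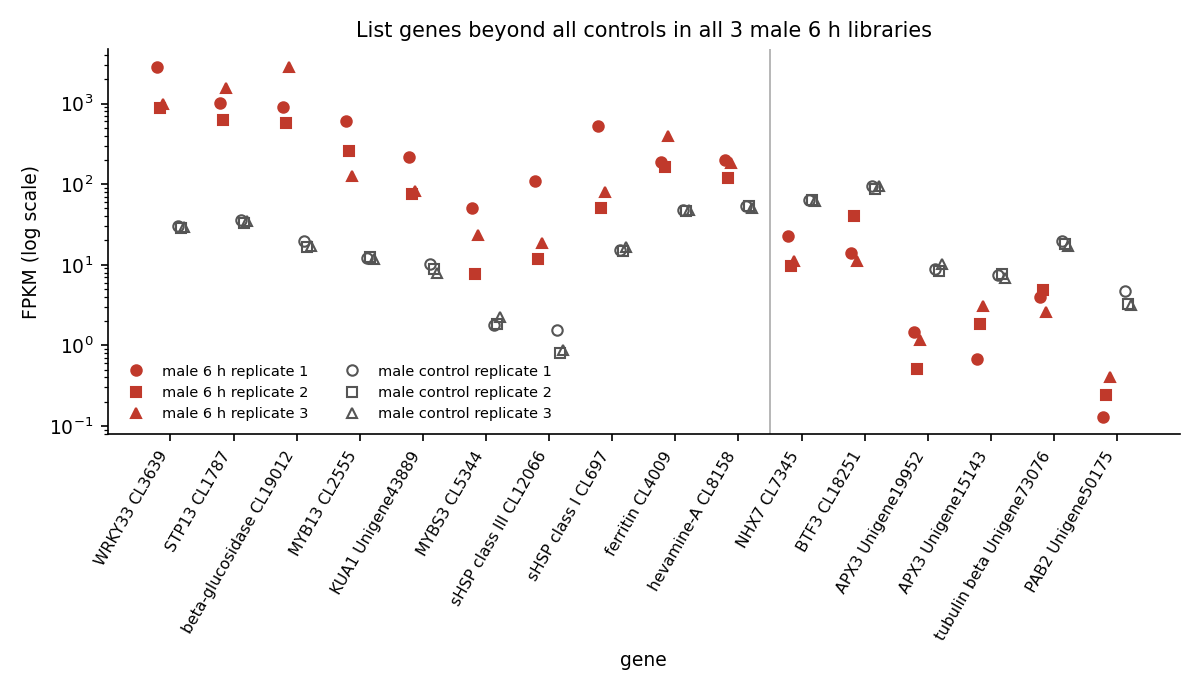
FPKM (log axis) of 16 list genes in the 3 male 6 h libraries (filled) and the 3 male control libraries (open), with a symbol for each replicate. The 10 genes on the left lie above the controls in every male 6 h library, such as *WRKY33* (2835, 879, and 989 FPKM against 30.6, 29.0, and 29.1), and the 6 on the right lie below them, such as *NHX7* (23.1, 9.59, and 11.1 FPKM against 64.2, 63.3, and 61.7).

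A sugar transporter gene, a beta-glucosidase gene, and a ferritin gene rose in all 3 libraries. *STP13* (CL1787), which encodes a hexose/proton symporter of the plasma membrane, had 1030, 620, and 1561 FPKM at 6 h, against 36.4, 33.3, and 35.2 FPKM in control roots. This log2 ratio of 4.82 had the smallest SE (0.36) of the list genes that rose by more than 4 (adjusted p = 0.00158 from limma). A non-cyanogenic beta-glucosidase gene (CL19012) had 909, 582, and 2865 FPKM, against 19.8, 16.4, and 17.1 FPKM (log2 ratio 5.98, SE 0.56, adjusted p = 0.00207 from limma). Replicate 3 was the highest for both genes, unlike *WRKY33* and *MYB13*. The other 9 beta-glucosidase genes did not pass the filter. In these 9, no control library exceeded 0.310 FPKM, and the highest male 6 h library exceeded the highest control in each. That was also so in 56 of all 63 list genes that did not pass. Genes seen in all 3 even controls pass the filter, so these values are not added evidence of a rise. Of the 9, 4 reached 1 FPKM in a male 6 h library.

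The ferritin gene CL4009, which encodes a plastid iron store, had 190, 163, and 397 FPKM at 6 h, against 48.3, 47.1, and 48.2 FPKM in control roots (log2 ratio 2.26, SE 0.36, adjusted p = 0.00527 from limma). The second tested ferritin gene (CL5890) had 41.2, 57.9, and 72.5 FPKM, against 63.5, 65.6, and 65.7 FPKM, with libraries on both sides. *Hevamine-A* (CL8158), which encodes a chitinase, had 202, 118, and 185 FPKM, against 53.1, 54.1, and 50.5 FPKM (log2 ratio 1.63, SE 0.27, adjusted p = 0.00596 from limma). All 3 male 6 h libraries lay above all controls for this gene. A gene matched to mitochondrial ATP synthase subunit delta' (CL9911) had 9.61, 32.8, and 22.9 FPKM, against 2.78, 0.950, and 1.88 FPKM (log2 ratio 3.15, SE 0.54, adjusted p = 0.00663 from limma). The related Unigene68160 had 1.75, 1.32, and 24.4 FPKM, against 1.47, 0.870, and 0.890 FPKM, with replicate 3 well above the controls and replicates 1 and 2 near them.

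CL9911 and Unigene68160 are among the 22 list genes whose nearest protein match lies outside *Populus* and *Salix*, which other organisms on the roots could also give. They also hold *NHX1* (CL3276). The summed FPKM of these 22 was 72.7, 162, and 210 in male 6 h replicates 1 to 3, against 81.3, 70.7, and 69.1 in male control roots. Without CL3276, it was 43.5, 132, and 178, against 61.3, 50.5, and 47.8. Of the 12 tested, 1 was shared higher and 4 were shared lower (8.62% and 11.8% of all tested genes were). Limma called 2 higher and 4 lower (11.1% and 23.8% of all tested genes were). Between 2 and 4 of the 22 were at 0 in each library. The part of other organisms in these values was not tested. No annotation of all genes was used here, so markers of root cell types were not checked.

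Small heat shock proteins, chaperones that hold unfolded proteins, were raised unevenly over the libraries. Of 8 tested genes, 3 were called higher (11.1% of all tested genes were) and 4 were shared higher (8.62% of all), and none were lower. Without any 1 of male control replicates 1, 2, and 3, limma called 1 of the 8. The class III gene CL12066 had 109, 11.6, and 18.6 FPKM at 6 h, against 1.56, 0.810, and 0.870 FPKM in control roots (log2 ratio 4.24, SE 0.80, adjusted p = 0.00884 from limma). The class I gene CL697 had 526, 50.1, and 80.9 FPKM, against 15.4, 14.8, and 16.6 FPKM (log2 ratio 3.01, SE 0.81, adjusted p = 0.0281 from limma). Replicate 1 was several times higher than replicates 2 and 3 in both. CL14675, another class I gene, had 33.0, 2.07, and 2.61 FPKM, against 0.360, 0.380, and 0.340 FPKM. It was shared but missed the test (log2 ratio 2.91, adjusted p = 0.0523 from limma).

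Replicate 1 was the highest male 6 h library for all 8 tested small heat shock protein genes and for 19 of the 20 in the list. The summed FPKM of the 20 was 1422 in replicate 1, 264 in replicate 2, and 229 in replicate 3, against 215, 219, and 221 in control roots. The sums of replicates 2 and 3 lay close to those of the controls, but a sum mixes genes that rose in these libraries with abundant ones that did not. The abundant CL17724 had 393, 124, and 97.5 FPKM, against 141, 150, and 148 FPKM, which put replicate 1 above and the other male 6 h libraries below the controls. Over the 8 tested genes, 4 of them shared higher, the median log2 ratio was 1.21 in replicate 2 and 0.61 in replicate 3. The 12 genes that did not pass the filter reached up to 58.1 FPKM in replicate 1, 2.89 in replicate 2, and 1.91 in replicate 3, and no more than 0.560 in any control.

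**Figure D5:**
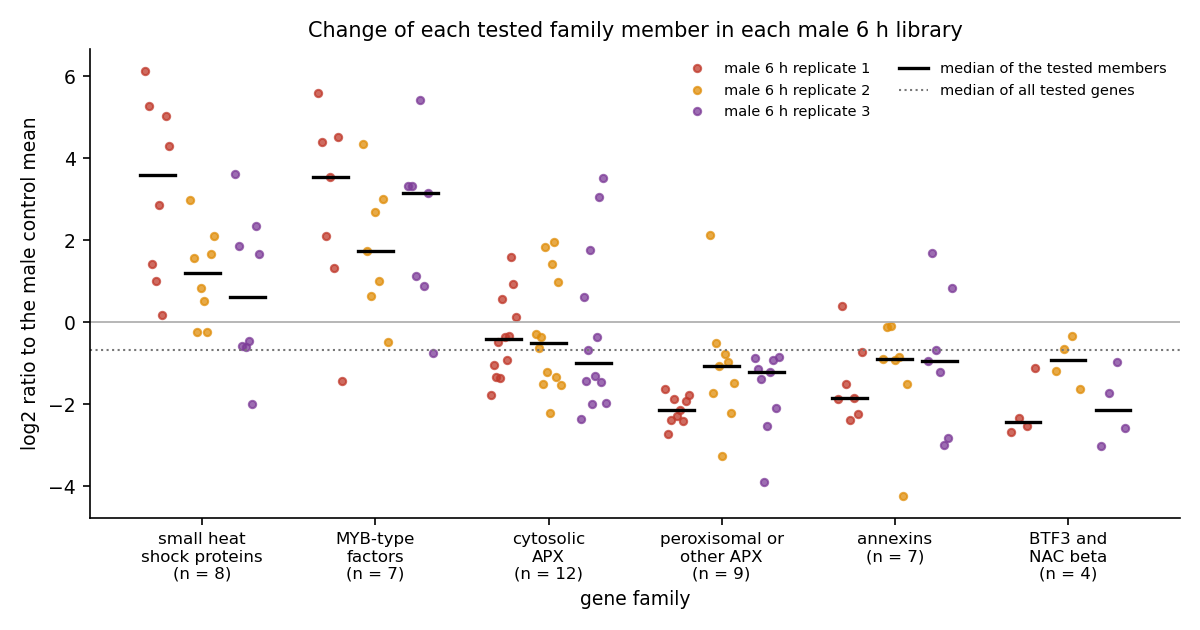
Log2 ratio to the male control mean (y axis) of each tested member of 6 gene families in male 6 h replicates 1, 2, and 3 (points), with the median per library (black lines) and the median of all tested genes (dotted line, -0.68). Small heat shock proteins have medians of 3.58, 1.21, and 0.61 in replicates 1 to 3, and peroxisomal or other ascorbate peroxidases of -2.15, -1.07, and -1.20.

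Ascorbate peroxidases reduce hydrogen peroxide with ascorbate, in the cytosol (APX1 and APX2) or on peroxisomes (APX3 and APX4). No gene of this family was called higher. Of 9 tested peroxisomal genes, 6 were called lower (23.8% of all tested genes were), and 3 of these were shared lower (11.8% of all). Scaling by the median of ratios, or leaving out any 1 of male control replicates 1, 2, and 3, left 2 of the 6 calls, those of Unigene19952 and Unigene23722. *APX3* unigene Unigene19952 had 1.48, 0.510, and 1.18 FPKM at 6 h, against 8.86, 8.31, and 10.2 FPKM in control roots (log2 ratio -2.68, SE 0.39, adjusted p = 0.00410 from limma). *APX3* unigene Unigene23722 had 0.12, 0, and 0.05 FPKM, against 1.49, 1.84, and 2.20 FPKM (log2 ratio -2.07, adjusted p = 0.00256 from limma). Every male 6 h library was below every control in both. The abundant Unigene21795 had 10.2, 28.2, and 29.4 FPKM, against 55.7, 56.2, and 55.4 FPKM (log2 ratio -1.42, adjusted p = 0.0375 from limma, and 0.0969 with scaling), with replicates 2 and 3 just inside the margin. The summed FPKM of all 15 peroxisomal genes was 16.9, 52.6, and 46.6, against 97.6, 98.9, and 99.2.

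Of 12 tested cytosolic ascorbate peroxidase genes, none were called in either direction, and none were shared. For 7 of the 12, the 3 male 6 h libraries were not all beyond the controls on 1 side, while 4 genes lay below and 1 lay above all controls in each library. Unigene15658 had 1.90, 21.8, and 20.4 FPKM at 6 h, against 5.45, 6.30, and 5.36 FPKM in control roots, below the controls in replicate 1 and above them in the others. Unigene24887 showed the opposite pattern, with 6.80, 0.460, and 0.380 FPKM, against 1.64, 2.10, and 2.09 FPKM. The most abundant, CL2500, had 187, 368, and 174 FPKM, against 485, 458, and 469 FPKM. It was below all controls in each library, yet its log2 ratio of -1.04 missed the test (SE 0.34, adjusted p = 0.0508 from limma). The summed FPKM of all 30 cytosolic genes was 358, 604, and 469, against 718, 689, and 697.

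Some list genes were seen in 1 or 2 male 6 h libraries and nearly nowhere in the controls, so they did not pass the filter. They are named here after their values were seen. The cytosolic *APX2* unigene Unigene17127 had 50.9 and 72.0 FPKM in replicates 2 and 3 and was listed at 0 in replicate 1 and in all 3 controls. Unigene8614, a cytosolic ascorbate peroxidase too, had 25.4 FPKM in replicate 2 but 0.0800 and 0 FPKM in replicates 1 and 3, and was listed at 0 in all controls. Unigene3010, matched to cyanate hydratase, had 43.1 FPKM in replicate 2, against at most 0.400 FPKM in the other 5 libraries, and its nearest protein match is in the alga *Klebsormidium nitens*. In each of them, replicate 1 was at or near 0 like the controls, but other list genes showed the opposite. The small heat shock protein gene Unigene7373 had 9.16 FPKM in replicate 1 and was listed at 0 in the other 5 libraries. Of the 63 list genes that did not pass the filter, 22 were highest in replicate 1, 16 in replicate 2, and 22 in replicate 3.

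Annexins are proteins that bind membranes in the presence of Ca2+. Of 7 tested annexin genes, 4 were called lower (23.8% of all tested genes were) and none higher, and 1 was shared lower (11.8% of all). Scaling, or leaving out any 1 of male control replicates 1, 2, and 3, left the call of Unigene26736 alone. *Annexin D5* unigene Unigene26736 had 1.51, 0, and 0.830 FPKM at 6 h, against 10.4, 9.19, and 7.47 FPKM in control roots (log2 ratio -3.10, SE 0.57, adjusted p = 0.00807 from limma). Unigene12580, another *Annexin D5* unigene, had 3.89, 11.4, and 9.27 FPKM, against 22.4, 23.0, and 21.3 FPKM. Its log2 ratio was -1.50 (adjusted p = 0.0285 from limma, and 0.0664 with scaling). The most abundant annexin gene, CL2944, was not called, with 112, 299, and 201 FPKM, against 315, 320, and 324 FPKM.

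Basic transcription factor 3 (BTF3) is the beta subunit of the nascent polypeptide-associated complex, which binds new proteins at the ribosome. Of 4 tested genes, 3 were called lower (23.8% of all tested genes were), and the median log2 ratio was -1.67. With scaling, 1 of the 3 calls was left, that of CL18251, and none were left without male control replicate 1, 2, or 3. CL18251 had 13.92, 40.3, and 10.98 FPKM at 6 h, against 94.6, 87.2, and 94.4 FPKM in control roots (log2 ratio -2.29, SE 0.47, adjusted p = 0.0121 from limma). It was the BTF3 gene that passed the margin in each library, with replicate 2 the least lowered. CL3930 had 39.8, 129, and 60.8 FPKM, against 196, 212, and 197 FPKM (log2 ratio -1.56, adjusted p = 0.0292 from limma, and 0.0640 with scaling). The summed FPKM of the 4 genes was 73.1, 256, and 127, against 408, 407, and 401. Replicate 2 was thus nearest to the controls in this family.

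Among the other list genes, 11 of 26 tested were called lower and 1 higher, beside 23.8% and 11.1% of all tested genes. With scaling, 4 of 25 tested were called lower, and without any 1 of male control replicates 1, 2, and 3, 4 were called lower and none higher. *Tubulin beta-8 chain* (Unigene73076) had 3.95, 4.81, and 2.59 FPKM at 6 h, against 19.99, 18.07, and 16.93 FPKM in control roots (log2 ratio -2.17, SE 0.31, adjusted p = 0.00385 from limma). *Polyadenylate-binding protein 2* (Unigene50175) had 0.130, 0.240, and 0.400 FPKM, against 4.70, 3.27, and 3.16 FPKM (log2 ratio -2.47, adjusted p = 0.00344 from limma). A chloroplastic inorganic pyrophosphatase gene (Unigene69581) was listed at 0, 0, and 1.17 FPKM, against 7.57, 5.04, and 4.53 FPKM. A mitochondrial aconitate hydratase gene (Unigene52977) had 0.140, 0, and 0.220 FPKM, against 1.53, 1.16, and 1.23 FPKM. These 4 were the shared lower ones of the group, and all have their nearest protein match outside *Populus* and *Salix*. The histone deacetylase gene *HDT3* (CL2909) had 20.3, 53.4, and 23.4 FPKM, against 87.46, 97.99, and 90.44 FPKM, and was called lower with replicate 2 inside the margin (log2 ratio -1.63, adjusted p = 0.0186 from limma).

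The mitochondrial *CBSX3* (CL19312) had 84.7, 171, and 118 FPKM at 6 h, against 307, 298, and 297 FPKM in control roots (log2 ratio -1.33, adjusted p = 0.0169 from limma). *ETHE1* (CL18355), a persulfide dioxygenase of mitochondria, had 18.9, 38.8, and 29.8 FPKM, against 66.6, 64.8, and 63.4 FPKM (log2 ratio -1.20, adjusted p = 0.0232 from limma). With scaling, both ratios stayed negative but were not called (-0.87 and -0.75), nor were those of Unigene15132, Unigene24762, Unigene56811, CL12340, and CL14846, which were called lower without it. The gene called higher was *glycine-rich RNA-binding protein 10* (CL17907), with 2.18, 4.40, and 1.02 FPKM, against 0.13, 0.1, and 0.31 FPKM (log2 ratio 2.01, adjusted p = 0.0168 from limma). Its nearest protein match is in the water mould *Aphanomyces astaci*.

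Outside the lists, the genes with the largest shared changes have no name in the files. CL3005 had 422, 129, and 93.7 FPKM at 6 h, against 0.160, 0.140, and 0.260 FPKM in control roots (log2 ratio 7.98, SE 0.56, adjusted p = 0.00137 from limma). Unigene1306 had 65.5, 116, and 88.4 FPKM, against 0.300, 0.160, and 0.160 FPKM (log2 ratio 6.97, SE 0.32, adjusted p = 0.000661 from limma). Both were at near 0 in all controls and high in all 3 male 6 h libraries. Unigene21087 had 0.0400, 0, and 0 FPKM, against 24.7, 29.0, and 34.2 FPKM, and was listed at 0 in all other groups of male and female roots compared here (male 12 and 24 h, female 6 h, and female control). Unigene44007 was listed at 0 in all 3 male 6 h libraries, against 9.51, 9.58, and 372 FPKM, so control replicate 3 set its mean. Over all genes, 534 were at 0 in every control and at least 1 FPKM in every male 6 h library, and 335 showed the reverse.

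The same treatment and time in female roots shares no library with the male comparison. By the same margin over the genes tested in male roots, 17.5% lay above and 14.6% below all controls in all 3 female 6 h libraries. Of the 3608 shared higher genes of male roots, 1684 (46.7%) were also shared higher in female roots, where they made up 23.0% of that list, and 85 (2.36%) were shared lower. Of the 4937 shared lower genes, 1688 (34.2%) were shared lower in female roots too (27.6% of that list), and 284 (5.75%) were shared higher. The difference of the male and female responses was tested with limma over 12 libraries, and 47.4% of 76464 genes passed. This fit pools the wide spread of male 6 h with the small spread of the other groups. Its 8 residual degrees of freedom count the even groups too, so its p-values are too small. Among named genes, *WRKY33* (CL3639) did not pass (male minus female log2 ratio 1.08, adjusted p = 0.0864 from limma), with 1387 ± 16.7 FPKM in female roots at 6 h and 64.9 ± 2.57 FPKM in female control roots (SD, n = 3 each). *NHX7* (CL7345) passed (-2.17, SE 0.37, adjusted p = 0.000685 from limma). Its female levels were 16.8 ± 0.161 FPKM at 6 h and 16.9 ± 0.756 FPKM in control roots (SD, n = 3 each), so male roots at 6 h, at 14.6 ± 7.39 FPKM, were near the female level, and male control roots, at 63.0 ± 1.28 FPKM, were above it. If each sex came from 1 plant, sex and plant cannot be told apart here.

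Later male levels, compared with the same 3 controls, are given side by side and were not tested against 6 h. *WRKY33* (CL3639) averaged 1568 FPKM at 6 h over 3 uneven libraries, 2078 ± 24.2 FPKM at 12 h, and 1781 ± 25.8 FPKM at 24 h (SD, n = 3). *MYB13* (CL2555) stood at 769 ± 9.32 FPKM at 12 h and 355 ± 8.60 FPKM at 24 h, and male 6 h replicates 1 to 3 had 608, 257, and 125 FPKM. *STP13* (CL1787) stood at 901 ± 1.82 FPKM at 12 h and 1749 ± 40.7 FPKM at 24 h, and its 6 h libraries lay on both sides of the 12 h level. The class III small heat shock protein gene CL12066 stood at 307 ± 2.79 FPKM at 12 h and 266 ± 9.95 FPKM at 24 h, above each of its 6 h libraries. *NHX7* (CL7345) stood at 17.7 ± 1.43 FPKM at 12 h and 4.99 ± 0.520 FPKM at 24 h, and of its 6 h libraries, replicate 1 (23.1 FPKM) lay above both levels and the others (9.59 and 11.1 FPKM) lay between them.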

How the data were processed

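Total RNA of roots was sequenced in 24 libraries, 3 for each of 8 groups. Trinity was used by the authors for assembly, contigs were clustered, and FPKM of 253209 contigs and single unigenes were deposited (RPKM in the methods). Aligner and quantifier were not given in the sources used here. Contigs of 20753 clusters were summed. The 6 compared libraries were fitted alone, since other groups had a smaller spread, with limma 3.58.1 in R 4.3.3 (lmFit, eBayes with trend, pseudocount 0.5), with Benjamini-Hochberg adjustment over all 41837 tested genes. This fit still pools male 6 h with the even male controls. Its 4 residual degrees of freedom count both groups, so its p-values may be too small. The difference between sexes was fitted on 12 libraries. Tables were handled with the data.table package (1.17.8), Python 3.11.15, numpy 2.4.6, pandas 2.3.3, and matplotlib 3.10.9. The number of reads is unknown, so no counting error is given.

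Gene lists came from the supplementary tables of the study (IDs and names only), with families by Swiss-Prot name. Members, lists, and rules were chosen with earlier results of these data known. The named genes were the 5 *NHX* genes, *SlActin*, the 2 members of each family with at least 3 measured members that had the largest shared rise and the 2 with the largest shared fall, single-gene families where called or shared, 1 member of each of the 5 largest families with the widest libraries, and 4 genes outside the lists. Other genes were named after their values were seen. Alternatives were other pseudocounts, filters, scaling by the median of ratios, all 8 groups in 1 model, the replicate block, contigs not summed, no trend, other thresholds, and each library left out. The filter on the mean was added after the data were seen.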

Additional observations from a re-analysis of the deposited data

Results flagged for a closer look

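The male and female responses at 6 h were compared by limma in 12 libraries (male minus female log2 ratio), and 17 named genes passed, beside 47.4% of all genes tested for it. These 17 are a smaller share of the named genes than 47.4%, so named genes did not pass more often than genes at large. The fit pools the spread of the 4 groups and so understates that of male 6 h. *STP13* (CL1787) had a difference of 2.33, the beta-glucosidase gene CL19012 of 5.63, the ferritin gene CL4009 of 1.36, *WRKY33* unigene Unigene26361 of 2.56, and *NHX1* gene CL9910 of 1.23. Control levels differed between the sexes too, most for CL19012 among these genes. Its mean was 797 FPKM in female control roots and 1018 FPKM at female 6 h, against 17.7 and 1452 FPKM in male roots. For *STP13*, the means were 124 and 696 FPKM, against 35.0 and 1070 FPKM. *NHX7* (CL7345) had a difference of -2.17 and *NHX2* (Unigene43275) of -3.08, where the female control libraries are listed at 0. *APX2* unigenes Unigene15071 and Unigene21732 had -2.16 and -3.90, and *APX3* unigene Unigene19952 had -2.05. The BTF3 gene CL18251 had -1.56, the phosphopantetheine adenylyltransferase gene Unigene15132 had -3.58, and the tubulin gene Unigene73076 had -3.20. The unnamed genes CL3005 and Unigene1306 had 1.77 and 5.13, and Unigene44007 and Unigene21087 had -5.64 and -5.85. These unnamed genes and many of the named list genes were picked for large shared changes in the same male libraries. A difference from female roots was thereby favoured in advance and is not independent evidence. The values of *NHX2* and of the unigenes with groups at 0 depend on the pseudocount.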

How the results depend on the processing

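The counts depended on the spread, the filter, and the scaling, and the cause of each change was not tested unless named. With no filter, limma called 2961 genes higher and 4049 lower (salt-response list 10 and 6, ROS list 2 and 2). With at least 5 FPKM in 3 libraries, fewer genes were tested, and limma called 1857 higher and 5387 lower, 1440 and 2422 were shared, and the lists had 4 shared lower (salt) and 3 shared higher genes (ROS). Scaling by the median of ratios gave 4677 lower genes (salt 7, ROS 2) and 2717 shared lower ones (salt 4). All 8 groups in 1 model, with 95202 genes tested and 16 residual degrees of freedom in place of 4, gave 12532 higher and 16351 lower (salt 36 higher, ROS 24 and 13). Without summing contigs, which adds features, 7114 were higher and 17188 lower, and 5621 and 10260 were shared (salt 11 shared lower). An FDR of 0.01 gave 2607 and 3208 (salt 9 and 6, ROS 2 and 2). A ratio or margin of 2 gave 3598 lower (salt 7, ROS 3) and 1351 shared higher and 940 shared lower (salt 7 and 1, ROS 1 and 1).

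With 1 library left out in turn, limma called 2532 to 5146 genes higher and 3195 to 13137 lower, and 3795 to 4353 and 5331 to 9278 were shared. The salt-response list had 9 to 17 higher and 6 to 25 lower (13 to 14 and 7 to 17 shared), and the ROS list had 2 to 7 and 2 to 11 (5 to 7 and 3 to 7 shared). The lowest counts by limma came without a control library. The named genes that differed between sexes numbered 14 to 24.

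Of the ratios of single named genes under all alternatives, 671 kept direction and side of the threshold, 73 lost the call, 18 gained it, and 14 changed sign, all in genes that were not called. The ratio of CL2217 became 0.35 with scaling. With the leading contig alone, CL3276 became -0.28, CL9910 -0.50, CL8420 -0.74, and *SlActin* (CL19537) 1.26. Unigene14227 became 0.016 with a pseudocount of 1 and 0.20 with scaling. With 1 library left out, the ratio lay between -0.30 and 0.16 for CL2217, -0.98 and 0.23 for Unigene43275, -0.20 and 0.23 for CL9910, -1.28 and 0.0027 for CL19537, -1.24 and 0.63 for Unigene14227, and -1.12 and 0.056 for Unigene27291.

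Deviations of libraries with the same replicate number had correlations of 0.000276, -0.0173, and 0.000462. For libraries with different numbers, the values lay between -0.0235 and 0.0235. No pairing by number was seen, but the controls differed too little from each other for this to exclude one. With the replicate number as a block, limma called 4553 genes higher and 7892 lower, and the sign of each named gene stayed. Low FPKM values limit ratios near the pseudocount, and 3 libraries as uneven as those of male 6 h limit every test.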
